A study of Mus musculus with 6 samples.

Results

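The 10 genes described here encode the MHC class II antigen presentation machinery: the class II chains H2-Aa, H2-Ab1 and H2-Eb1, the invariant chain Cd74, the peptide editors H2-DMa and H2-DMb1, their modulators H2-Oa and H2-Ob, the transactivator Ciita and the thiol reductase Ifi30. They were named from the pathway and matched by symbol in a table of 17313 genes, in which all 10 had a row. RNA-seq was done on macrophages grown from the bone marrow of C57BL/6 mice. The KO group (3 libraries) came from Hdac2fl/fLysMCre mice, in which a Cre recombinase driven by the lysozyme gene Lyz2 targets floxed Hdac2, a class I histone deacetylase gene, in myeloid cells. The WT group (3 libraries) came from Hdac2fl/fl mice, which carry the floxed alleles without the Cre. All mice in both groups had received LLC1 Lewis lung carcinoma cells by the intravenous route, and marrow was taken on day 20, so no tumour-free animals enter the comparison. The labels do not say whether each library came from its own mouse, so the p-values rest on how far these samples scatter, some of which can be technical. Values are treated as read counts that the authors scaled per library and rounded, called scaled counts below, with library totals from 5704313 to 5837994.

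In mm10 coordinates, 7 of the genes lie in the class II region of chromosome 17, from the start of H2-Oa at 34092340 to the end of H2-Eb1 at 34316674. Cd74 lies on chromosome 18 (60803848 to 60812652), Ciita on chromosome 16 (10480059 to 10528418) and Ifi30 on chromosome 8 (70762774 to 70766663). The annotation lists Ifi30 as a processed transcript and the other 9 genes as protein coding.

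MHC class II molecules are pairs of an alpha and a beta chain that carry peptides from endosomes to the cell surface, where CD4+ T cells read them. The invariant chain fills the groove of the new pair and guides it to endosomes, where proteases remove it, H2-DM exchanges the remaining fragment for a peptide, and H2-DO restrains H2-DM. CIITA, a coactivator that does not itself bind DNA, switches on most of these genes through the RFX and NF-Y factors bound at the X and Y boxes of their promoters. Interferon gamma induces it in macrophages, while resting macrophages hold little class II. C57BL/6 mice carry the H2-b haplotype, in which the E alpha gene is inactive, so H2-Eb1 RNA is made without a partner chain.

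RefSeq promoter windows on build GRCm38.p6 were found for 7 of the 10 genes: H2-Aa, H2-Eb1, H2-DMa, H2-DMb1, H2-Oa, H2-Ob and Ifi30. A stretch of 110 bases is shown for 4 of them, because they pair genes with wide gaps between WT libraries, 2 classical chains and H2-Ob, with H2-DMb1, whose values lay closer together. Capitals mark matches on either strand to an X box core (GNNACNGAT) or a Y box (GATTGG). Each stretch is written 5′ to 3′ on the strand of the gene and runs from base -130 to base -21 before the transcription start.
H2-Aa, chr17:34287844-34287953, minus strand: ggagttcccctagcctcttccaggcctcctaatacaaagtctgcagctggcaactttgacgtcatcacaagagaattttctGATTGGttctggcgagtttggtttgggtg
H2-Eb1, chr17:34305737-34305846, plus strand: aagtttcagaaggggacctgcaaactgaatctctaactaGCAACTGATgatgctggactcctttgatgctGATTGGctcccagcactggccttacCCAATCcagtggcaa
H2-DMb1, chr17:34153061-34153170, plus strand: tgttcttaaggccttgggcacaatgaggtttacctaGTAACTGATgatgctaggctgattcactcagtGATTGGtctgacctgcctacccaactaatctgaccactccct
H2-Ob, chr17:34238775-34238884, plus strand: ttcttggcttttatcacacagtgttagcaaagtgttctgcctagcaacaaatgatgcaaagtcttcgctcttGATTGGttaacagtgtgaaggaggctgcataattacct

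The letters of the X box core occurred in 7.82% and those of the Y box in 16.1% of the 32851 promoter windows, which run from 250 bases before to 50 bases after the start. The X box core followed on the same strand by a Y box, with 10 to 30 bases between them, occurred in 0.0517% (17 windows). H2-Eb1 and H2-DMb1 were among these, with 22 and 23 bases between the motifs. The windows of H2-Aa, H2-Oa and H2-Ob held the Y box at -49, -44 and -58 without the letters GNNACNGAT at that distance before it. An X box that departs from these letters would be missed by this search. These matches describe the letters and do not show binding.

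The targeted gene was read first. Hdac2 stood at 392, 387 and 375 scaled counts in the KO libraries, against 534, 482 and 518 in the WT libraries. KO lay below WT without overlap, as it did in 13.4% of all tested genes. The means were 385 ± 8.74 in KO and 511 ± 26.6 in WT (SD, n = 3 each), so Hdac2 RNA was lower but not absent in KO. The exact permutation test gave p = 0.1, two-sided, the smallest this design allows. The log2 difference was -0.41 ± 0.057 (± SE), and Hdac2 was not called by limma (adjusted p = 0.158). WT 2 and WT 3 stood apart from the other 4 libraries on the first principal component, which held 78.6% of the variance. The same libraries differed in sex-linked genes. Xist, expressed from the inactive X chromosome of female cells, was at 4726, 4997 and 3298 in KO and at 5243, 0 and 74 in WT 1, WT 2 and WT 3, and the Y-linked Kdm5d was at 5, 0 and 0 in KO and at 34, 473 and 482 in WT. WT 1 is thus the WT library that shares the high Xist of the KO libraries. It also held more Y-linked RNA than they did, with Uty at 23 against 0, 0 and 0 in KO. Results are given for KO against all WT libraries, against WT 1, and against WT 2 and WT 3. Genotype and the sex-linked difference cannot be told apart against WT 2 and WT 3, nor fully against all WT libraries or WT 1.

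The classical class II chains had low values in KO and in WT 1 and higher ones in WT 2 and WT 3. H2-Aa, the A alpha chain, had 11, 13 and 16 scaled counts in KO 1, KO 2 and KO 3, against 18, 55 and 87 in WT 1, WT 2 and WT 3. H2-Ab1, the A beta chain that pairs with it, had 24, 16 and 33 in KO, against 20, 58 and 82 in WT. H2-Eb1, the E beta chain, had 12, 10 and 11 in KO, against 13, 42 and 36 in WT. KO lay below WT without overlap for H2-Aa and H2-Eb1, by the narrow margin to WT 1, and the groups overlapped for H2-Ab1. The ratio of the KO mean to the WT mean was 0.25 for H2-Aa, 0.456 for H2-Ab1 and 0.363 for H2-Eb1. In these bulk cultures, fewer cells that express a gene and less RNA per cell cannot be told apart. Summed over the 3 chains, KO had 47, 39 and 60 scaled counts, against 51, 155 and 205 in WT.

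**Figure D1:**
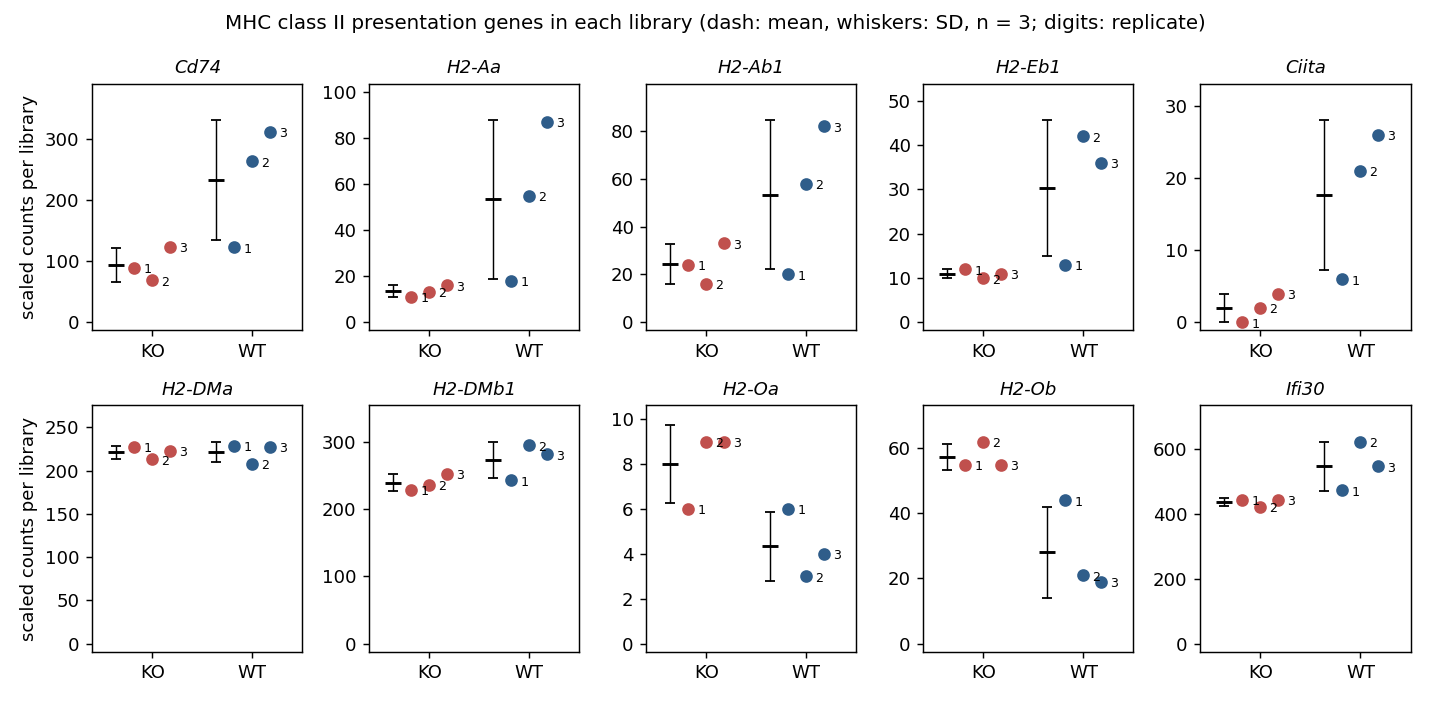
Scaled counts (vertical axis, linear) of each gene in every library, KO on the left and WT on the right of each panel. Digits give the replicate, the dash the mean and the whiskers the SD (n = 3 each). For H2-Aa the KO libraries sit between 11 and 16, close to WT 1 at 18, while WT 2 and WT 3 are at 55 and 87.

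Cd74, the invariant chain, followed the chains at a higher level. It had 89, 69 and 124 scaled counts in KO, against 123, 264 and 312 in WT, so KO 3 and WT 1 were level and the groups overlapped by 1 count. The log2 difference of KO minus WT was -1.24 ± 0.39 for Cd74, -1.68 ± 0.57 for H2-Aa, -0.94 ± 0.55 for H2-Ab1 and -1.23 ± 0.46 for H2-Eb1 (± SE, limma on log2(scaled count + 1), a scale that understates the change of low genes). None of these genes passed the threshold of 0.05 over the 13260 genes tested (limma adjusted p = 0.158, 0.164, 0.340 and 0.179).

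Ciita, the transactivator of the pathway, was close to 0 in the KO libraries. It had 0, 2 and 4 scaled counts in KO 1, KO 2 and KO 3, against 6, 21 and 26 in WT 1, WT 2 and WT 3. The order of the libraries was that of H2-Aa, with WT 3 highest, KO 1 lowest and no overlap between groups. With a value of at least 10 in 2 libraries and not 3 it fell under the filter on low values and was left out of the test above. In the fit without that filter its log2 difference was -2.70 ± 0.77 (± SE) with an adjusted limma p of 0.162 over 17313 genes. The annotated span of Ciita overlaps that of Dexi, a gene on the opposite strand. It is not stated whether the counting used strand, so reads from any stretch that both share cannot be told apart.

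Markers of macrophages and of other cells also differed between the libraries. The 8 macrophage markers all had rows and summed to 9496 to 9975 scaled counts in KO and 10367 to 11056 in WT. Of 10 dendritic cell markers 4 had a row (Itgax, Zbtb46, Kit and Clec9a), with sums of 1204 to 1582 in KO and 1699 to 2366 in WT, nearly all from Itgax, which macrophages also express. Zbtb46, the factor that sets classical dendritic cells apart, was at 51, 43 and 48 in KO and at 37, 16 and 22 in WT, opposite to the class II chains, and the dendritic cell marker Clec9a was at 1, 1 and 0 in KO and 4, 2 and 5 in WT. Of 8 B cell markers 4 had a row, summing to 393 to 478 in KO and 211 to 443 in WT. Ebf1, a B cell factor that marrow stroma also expresses, was at 315, 270 and 240 in KO and at 227, 39 and 47 in WT. Cd22, a B cell surface receptor, ran the other way, at 134, 128 and 113 in KO and at 195, 162 and 189 in WT, without overlap (log2 difference -0.54 ± 0.11, limma adjusted p = 0.158). The B cell surface gene Ms4a1 did not exceed 4 in any library, and Cd79b, a chain of the B cell receptor, was at 29, 34 and 39 in KO and 17, 9 and 12 in WT. Of 5 T cell markers only Cd4 had a row, at 144 to 188 in KO and 118 to 155 in WT, and of 4 monocyte markers only Ccr2, at 43 to 67 in KO and 57 to 97 in WT. The 8 fibroblast and stroma markers summed to 16328, 14829 and 12885 in KO, and to 12153, 5371 and 5230 in WT, so WT 2 and WT 3, the libraries with the most class II RNA, had the least stromal RNA. The part of these cells in the class II values was not tested.

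The peptide editors had nearer values in both groups. H2-DMa, the alpha chain of the exchange catalyst H2-DM, had 228, 213 and 223 scaled counts in KO and 229, 208 and 228 in WT, with full overlap. Its log2 difference was -0.0013 with a 95% interval of -0.18 to 0.18, an interval that leaves room for small changes in either direction. H2-DMb1, the beta chain, had 229, 236 and 253 in KO and 243, 295 and 282 in WT, a log2 difference of -0.19 ± 0.093 (± SE) that did not pass (limma adjusted p = 0.271). H2-DMa overlaps Brd2 on the opposite strand, and H2-DMb1 has a close copy, H2-DMb2, with which it can share reads. H2-DMb2 had 34, 40 and 31 scaled counts in KO and 34, 13 and 21 in WT, higher in the KO mean where H2-DMb1 was lower (log2 difference 0.70 ± 0.36, limma adjusted p = 0.284).

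The modulators of H2-DM had higher means in KO, opposite to the classical chains. H2-Ob, the beta chain of H2-DO, had 55, 62 and 55 scaled counts in KO, against 44, 21 and 19 in WT. All KO libraries lay above all WT libraries, and WT 1 was again the WT library nearest to KO. The KO mean was 2.05 times the WT mean, 57.3 ± 4.04 against 28.0 ± 13.9 (SD, n = 3 each), with a log2 difference of 1.11 ± 0.33 (± SE, limma adjusted p = 0.158). H2-Oa, the alpha chain, was barely detected, with 6, 9 and 9 in KO and 6, 3 and 4 in WT. It too fell under the filter, and without the filter its log2 difference was 0.77 ± 0.37 (limma adjusted p = 0.276).

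Ifi30, the interferon-inducible reductase that opens disulphide bonds of antigens in lysosomes, was the member with the highest level. It had 443, 422 and 443 scaled counts in KO, against 472, 622 and 546 in WT, without overlap. KO averaged 0.798 times WT, and the log2 difference of -0.32 ± 0.10 did not pass (limma adjusted p = 0.160). Ifi30 overlaps 6330537M06Rik on the opposite strand.

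**Figure D2:**
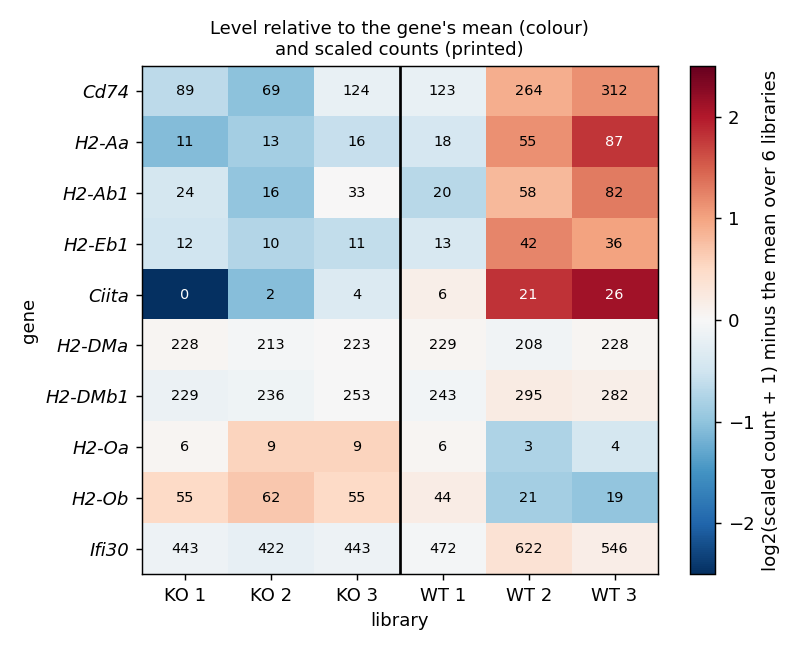
Level of each gene (rows) in each library (columns, KO left and WT right of the line), coloured by log2(scaled count + 1) minus the gene's mean over the 6 libraries, with the scaled counts printed in the cells. Cd74, H2-Aa, H2-Ab1, H2-Eb1 and Ciita are above their means by most in WT 2 and WT 3, H2-Oa and H2-Ob are below theirs in those libraries, and H2-DMa is even. KO 1 of Ciita, at 0, lies past the dark end of the colour scale.

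Levels can be compared between genes only per length, here as scaled counts per kilobase of exon. In KO, Ifi30 was highest at 444 ± 12.4 per kilobase, followed by H2-DMb1 at 142 ± 7.35, H2-DMa at 64.2 ± 2.22 and Cd74 at 56.0 ± 16.6 (SD, n = 3). In WT, Ifi30 stood at 557 ± 76.4, H2-DMb1 at 163 ± 16.1, Cd74 at 139 ± 58.5 and H2-DMa at 64.3 ± 3.44. H2-DMa and Cd74 in KO, and H2-DMb1 and Cd74 in WT, were neighbours closer than their spread. The classical chains lay well below, at 3.51 ± 0.663 for H2-Aa, 9.48 ± 3.31 for H2-Ab1 and 5.66 ± 0.514 for H2-Eb1 in KO, and at 14.0 ± 9.09, 20.8 ± 12.2 and 15.6 ± 7.87 in WT. In WT the means of the 3 chains lay closer than their spread between libraries. Within each WT library, though, H2-Aa was below H2-Ab1, at 0.61, 0.64 and 0.72 times its level in WT 1, WT 2 and WT 3. H2-Ob stood at 10.6 ± 0.751 in KO, where its mean was above those of all 3 chains, and at 5.20 ± 2.58 in WT, where its mean was below them. That WT order held in WT 2 and WT 3, while in WT 1 H2-Ob was at 8.18, above H2-Aa at 4.74, H2-Ab1 at 7.79 and H2-Eb1 at 6.69. H2-Oa was at 5.69 ± 1.23 in KO and 3.08 ± 1.09 in WT, and Ciita was lowest in both groups, at 0.210 ± 0.210 in KO and 1.85 ± 1.09 in WT. H2-Ob and H2-Ab1 in KO, H2-Oa and H2-Eb1 in KO, H2-Aa and H2-Ob in WT, and H2-Ob and H2-Oa in WT also lay closer than their spread. Of these pairs, H2-Ob was above H2-Oa within each WT library.

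Ratios within a library do not depend on its scaling. Per kilobase, Cd74 was 2.88, 2.78 and 3.25 times the sum of H2-Aa, H2-Ab1 and H2-Eb1 in KO, and 3.81, 2.68 and 2.53 times in WT, with overlapping groups. H2-Ob relative to H2-Ab1, both beta chains, was 1.09, 1.85 and 0.796 per kilobase in KO and 1.05, 0.173 and 0.111 in WT 1, WT 2 and WT 3. WT 1 lay within the KO range of that ratio, and WT 2 and WT 3 lay below every other library. H2-Aa relative to H2-Ab1 was 0.310, 0.549 and 0.328 in KO and 0.608, 0.641 and 0.717 in WT, without overlap. The gap is narrow and rests on low values. H2-Aa and H2-Ab1 had 13 and 16 scaled counts in KO 2, and 18 and 20 in WT 1. All 10 genes together summed to 1097, 1052 and 1171 scaled counts in KO, against 1174, 1589 and 1622 in WT.

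Of the 8 tested genes, each with at least 10 scaled counts in all 6 libraries, 0 were called with all libraries at a limma adjusted p under 0.05, and the share over all 13260 tested genes was also 0%. At an unadjusted limma p under 0.05, Cd74, H2-Aa, H2-Eb1 and Ifi30 were lower in KO and H2-Ob was higher, 4 and 1 of 8, where 9.68% of all tested genes were lower and 14.7% higher. H2-Aa, H2-Eb1 and Ifi30 had every KO library below every WT library and H2-Ob every KO library above, 3 and 1 of 8, against 13.4% and 16.1% of all tested genes. The median log2 difference of the 8 genes was -0.63, beside -0.0046 over all tested genes. Their median was -0.25 in a fit restricted to genes with a mean of at least 100, which keeps Cd74, H2-DMa, H2-DMb1 and Ifi30 only.

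Calls were made once WT 1 was left out. Against WT 2 and WT 3 alone, 5 genes fell, with log2 differences of -2.31 for H2-Aa (limma adjusted p = 0.00508), -1.74 for H2-Eb1 (0.00692), -1.64 for Cd74 (0.00941), -1.52 for H2-Ab1 (0.0336) and -0.42 for Ifi30 (0.0173). H2-Ob rose by 1.47 (limma adjusted p = 0.00410). In that fit 5 of 8 genes were called lower, where 5.07% of all tested genes were, and 1 of 8 higher, where 12.8% were. Across the alternatives tried, limma adjusted p-values spanned 0.00508 to 0.858 for H2-Aa, 0.00941 to 0.858 for Cd74, 0.00692 to 0.895 for H2-Eb1, 0.0336 to 0.923 for H2-Ab1, 0.0173 to 0.820 for Ifi30 and 0.0041 to 0.791 for H2-Ob. Leaving out WT 1 was the sole alternative in which any of the 8 was called.

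Against WT 1 alone, which shares the high Xist of KO, every 95% interval included 0. They were -0.43 for Cd74 (95% interval -1.37 to 0.52), -0.42 for H2-Aa (-1.37 to 0.53), 0.21 for H2-Ab1 (-1.03 to 1.46) and -0.23 for H2-Eb1 (-1.12 to 0.66), taking the scatter of the KO libraries to hold for the lone WT 1. H2-Ob differed by 0.37 (-0.14 to 0.88) and Ifi30 by -0.11 (-0.30 to 0.070). None was called by limma (adjusted p from 0.791 to 0.964 over the 8 genes), and the median of the 8 was -0.082, beside -0.0017 over all tested genes. On the log2 scale, WT 1 was closer to the KO mean than to that of the other WT libraries in 10 of the 10 genes, as it was in 66.4% of all tested genes.

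**Figure D3:**
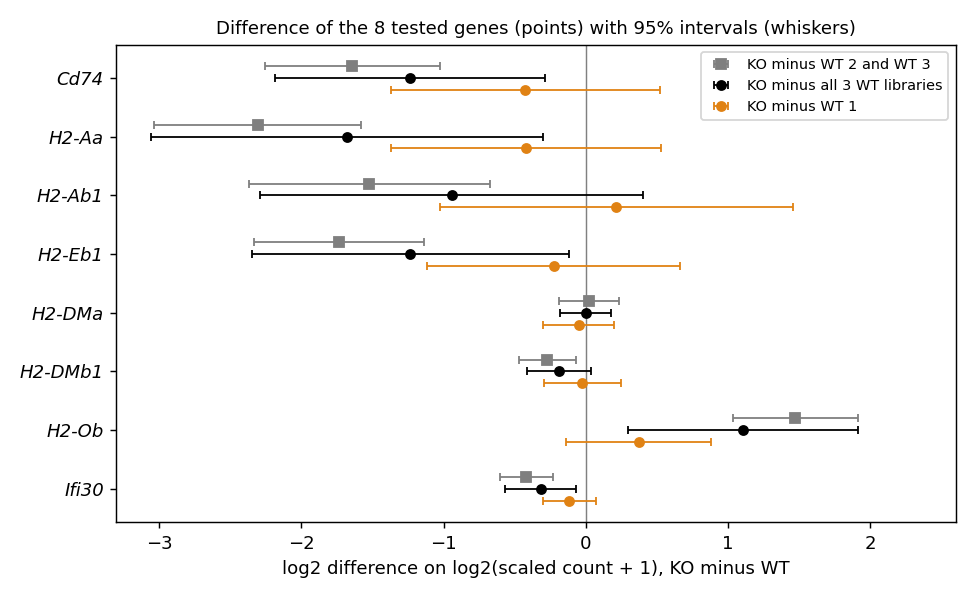
Log2 difference of KO minus WT (horizontal axis, log2(scaled count + 1) scale) for the 8 tested genes, as points with 95% intervals as whiskers. For Cd74, H2-Aa, H2-Ab1, H2-Eb1, H2-Ob and Ifi30 the comparison with WT 2 and WT 3 (grey squares) lies farthest from 0 and that with WT 1 (orange) nearest. The WT 1 intervals include 0 in all 8 genes.

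Transcription factors that act on the class II promoters or on Ciita were expressed in both groups. Of 11 such regulators, all tested, the log2 difference was above 0 in 4 and below 0 in 7, with a median of -0.10. Over all 13260 tested genes, 6510 were above 0 and 6748 below. By limma 0 were called, while 2 were higher and 3 lower at an unadjusted p under 0.05, against 14.7% and 9.68% of all tested genes. Rfx5, a subunit of the RFX complex, was at 317 ± 19.5 in KO and 278 ± 8.08 in WT, and Nfyb, a subunit of NF-Y, at 259 ± 8.51 and 229 ± 9.07 in KO and WT (SD, n = 3), each higher in all KO libraries. Spi1, which encodes the myeloid factor PU.1, was at 812 ± 41.0 in KO and 944 ± 73.0 in WT, and Prdm1, which encodes the Ciita repressor BLIMP-1, at 216 ± 29.8 in KO and 290 ± 46.6 in WT. The limma adjusted p-values of these 4 genes lay between 0.163 and 0.174. Without WT 1, Spi1 and Prdm1 were called lower (limma adjusted p = 0.0457 and 0.0319), as was Irf4. That made 3 of 11, where 5.07% of all tested genes were called lower in that fit.

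The interferon gamma pathway, which induces Ciita, had 7 tested genes, of which 6 had a difference below 0, with a median of -0.093. Of all 13260 tested genes, 6748 were below 0. By limma 0 were called, and 2 were lower at an unadjusted p under 0.05, against the same 9.68%. Irf1, an interferon-induced activator of Ciita, was at 512 ± 20.9 in KO and 614 ± 54.4 in WT (SD, n = 3). All its KO libraries lay below all WT libraries, with a limma adjusted p of 0.158. The kinase gene Jak1 was at 1756 ± 6.66 in KO and 1867 ± 51.5 in WT, and the receptor gene Ifngr1 at 770 ± 31.7 in KO and 837 ± 59.9 in WT (limma adjusted p = 0.258 and 0.319). Against WT 1, the log2 difference of Irf1 was -0.11. Without WT 1, Irf1 was called lower (limma adjusted p = 0.0168), 1 of 7 where 5.07% of all tested genes were.

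The list of processing and traffic genes holds proteases that act on antigen or the invariant chain, and Marchf1 and Marchf8, ubiquitin ligases that act on class II at the cell surface. Differences were below 0 in 10 of its 10 tested genes, with a median of -0.16, where 6748 of all 13260 tested genes were below 0. The 8 macrophage markers leaned the same way, with 7 below 0 and a median of -0.175. Mertk was the exception, with a log2 difference of 0.18. In 7 of the 8 markers every KO library lay below all WT libraries, against 13.4% of all tested genes. Of the 10 processing and traffic genes, 0 were called by limma. At an unadjusted limma p under 0.05, 7 of these 10 were lower, where 9.68% of all tested genes were. Ctss, the protease that trims the invariant chain in macrophages and dendritic cells, was at 998 ± 18.2 in KO and 1189 ± 56.6 in WT, and Sppl2a, which clears its membrane fragment, at 1289 ± 18.2 in KO and 1509 ± 59.5 in WT (SD, n = 3). The lysosomal proteases Ctsd and Ctsl were at 962 ± 18.2 and 1037 ± 49.0 in KO, and at 1065 ± 56.4 and 1244 ± 151 in WT. Limma adjusted p-values ran from 0.158 to 0.174 for these 4. Every KO library was below all WT libraries in 9 of the 10 genes, the exception being Marchf1, against 13.4% of all tested genes. Without WT 1, Ctss and Sppl2a were called lower (limma adjusted p = 0.0167 and 0.0184), 2 of 10 where 5.07% of all tested genes were. The difference from WT 1 was -0.18 for Ctss and -0.16 for Sppl2a.

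Among the neighbours in the class II region, 6 genes outside the 10 were tested, H2-DMb2 among them with a log2 difference of 0.70. By limma 0 were called, also without WT 1, and 2 were lower at an unadjusted p under 0.05, against 9.68% of all tested genes. The immunoproteasome subunit Psmb8 was at 439 ± 21.4 in KO and 491 ± 8.02 in WT, and the peptide transporter subunits Tap1 and Tap2 of the class I pathway at 677 ± 49.9 and 563 ± 38.1 in KO, against 760 ± 17.6 and 633 ± 55.1 in WT (SD, n = 3). Their log2 differences were -0.16, -0.17 and -0.17 (limma adjusted p = 0.163, 0.188 and 0.270). H2-Ob lies between Tap2 on one side and H2-Ab1, H2-Aa and H2-Eb1 on the other.

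**Figure D4:**
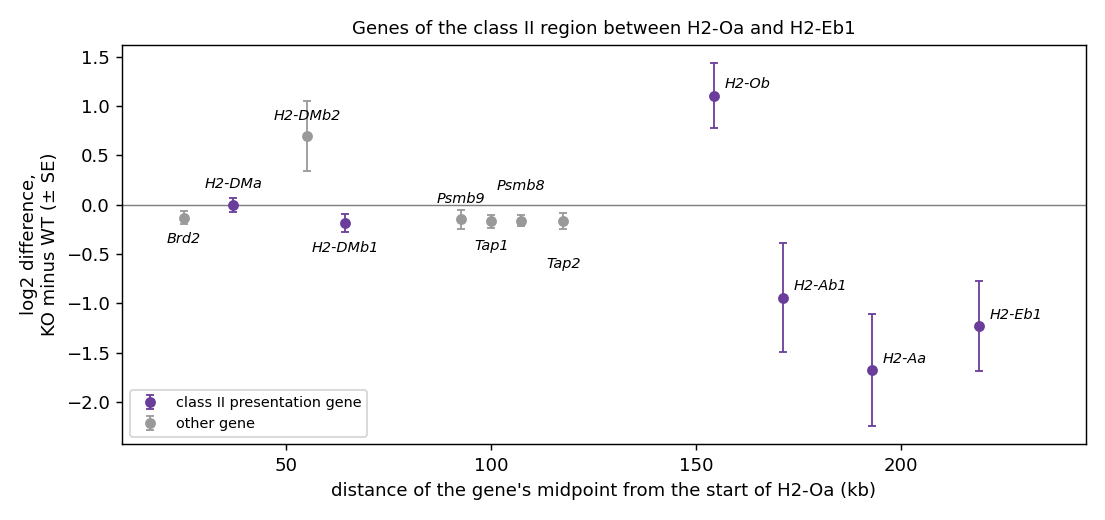
Log2 difference of KO minus WT (vertical axis, ± SE) of the 12 tested genes of the class II region against the distance of each gene's midpoint from the start of H2-Oa (horizontal axis, kb). H2-Ob lies at 1.11 and H2-Ab1, H2-Aa and H2-Eb1 at -0.94, -1.68 and -1.23, while Brd2, Psmb9, Tap1, Psmb8 and Tap2 lie between -0.17 and -0.13.

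The genes whose profile over the 6 libraries was most like the mean of Cd74, H2-Aa, H2-Ab1 and H2-Eb1, among 10951 genes with a mean of at least 50, included Cdkn1c, Smpd3, Dio2 and Ak8. Their centred log2 profiles differed from that mean by a root mean square of 0.193, 0.228, 0.245 and 0.246. Cdkn1c, a cell cycle inhibitor, had 38, 42 and 54 scaled counts in KO and 63, 135 and 145 in WT. Smpd3, a sphingomyelinase, had 152, 125 and 211 in KO and 223, 735 and 579 in WT. In both, WT 2 and WT 3 were high and WT 1 near KO, which follows from how these genes were picked.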

How the data were processed

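Per the submitters' processing notes, the tools were DESeq2 1.36.0, featureCounts 2.0.3, Picard 2.27.4, Trimmomatic 0.39 and STAR 2.7.10a, with mm10 as the build and no roles or order given. Nothing in the labels states the unit of the deposited values, which are taken as a score: whole numbers that look like counts scaled by the authors with 1 factor per library and then rounded. The totals were nearly equal, and the values 6, 17, 29, 40 and 52 never occurred in WT 2, a gap that scaling and rounding leave. Raw depth is unknown, so no count model was used, nor any interval or floor based on raw read counts. The intervals given come from the limma fits on the log2 scale, and the filter on low values acts on the scaled counts.

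A gene was tested if 3 or more libraries reached 10, which left 13260. The test was limma 3.58.1 (R 4.3.3) with its mean-variance trend, two-sided, on log2 of the value plus 1, with group as the sole term. Benjamini-Hochberg adjustment ran over all tested genes, with 0.05 as the threshold, and the code was tested on simulated data. Exonic lengths are unions of exons in GENCODE M21, which held 17297 of the 17313 identifiers. Promoters are from RefSeq (GRCm38.p6). Tables were built with Python 3.11.15 and pandas 2.3.3.

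The members, lists, tests and alternatives were chosen with earlier results of these data known. The text names all 10 members, Hdac2, up to 4 genes with the smallest p of each pathway or region list, defining markers, and the 5 genes with the nearest profile by root mean square difference. Brd2, Psmb9, Irf4, Marchf1, Marchf8 and Mertk were named after their values were seen. Listed genes with no row are not analysed here. Some genes that this rule selects are not reported here.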

Additional observations from a re-analysis of the deposited data

How the results depend on the processing

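With all 6 libraries, 0 of 8 tested genes were called, and this held for other pseudocounts (5 and 0.5), no filter, a mean of at least 100 as the filter, upper-quartile and median-of-ratios rescaling, cyclic loess, no intensity trend, an adjusted p under 0.1 and WT 1 as the only WT library. Leaving out 1 library at a time gave 0 to 1 genes called higher and 0 to 5 called lower, all of them without WT 1, and the cause was not tested. The median difference of the members ran from -0.97 without WT 1 to -0.082 against WT 1 alone. H2-Ab1 reversed to 0.21 against WT 1 alone. H2-DMa, at -0.0013, turned to 0.0092 under upper-quartile rescaling, and it ran from -0.046 without WT 2 to 0.026 without KO 2 when libraries were left out in turn; it was also above 0 without WT 1 and without WT 3 (0.023 and 0.020). The replicate numbers are shared between the groups. Deviations of same-numbered libraries from their group means had correlations of 0.534, -0.364 and 0.024 for numbers 1, 2 and 3. KO 3 and WT 2, with unlike numbers, reached 0.618. With 3 libraries per group such correlations cannot exclude pairing, and the libraries were not taken as pairs. With the replicate block 0 members were called and the median difference was -0.63. The recomputation of TMM factors was replaced by median-of-ratios rescaling because the values are not raw counts. For the same reason, edgeR and DESeq2 were not run. Ciita and H2-Oa are too low in these libraries for their differences to be measured well.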
